A study of Mus musculus with 6 samples.

Results

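The genes described here make, store and break down L-DOPA and dopamine, or make and recycle the cofactor that L-DOPA synthesis needs. They are Th, Ddc, Slc18a2, Maoa, Maob, Gch1, Pts, Qdpr and Pcbd1, and every probe set that the array's annotation gives 1 of these symbols was taken. The 9 genes were covered by 14 of 45037 probe sets (each probe set is a group of short oligonucleotides that reports 1 transcript region), with 2 probe sets for 5 genes and 1 for the other 4. All 9 were represented, and 9 of the 14 probe sets, from 7 genes, lay above the filter on low signals used for testing.

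RNA came from the posterior eye at embryonic day 15.5 and was hybridised to Affymetrix mouse expression arrays. The Oa1-/- group comprised 3 arrays from mice lacking the receptor gene Oa1, now called Gpr143. The WT group comprised 3 arrays from wild-type mice. A sample was the pooled eyes of 6 embryos of 1 dam, so a replicate is a litter pool, and p-values measure the spread between such pools. No source used here states the strain, the sex of the embryos or how much of the gene was removed. Both groups were untreated as far as the labels say. The values are MAS5 signals, a linear intensity that the authors had scaled to a common level on each array, and the scaled mean (after trimming 2% at each end) was 500 on all 6.

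L-DOPA is a proposed ligand of the Oa1 receptor. In catecholamine neurons, tyrosine hydroxylase (Th) turns tyrosine into L-DOPA, the rate-limiting step, and aromatic L-amino acid decarboxylase (Ddc) turns L-DOPA into dopamine. The hydroxylase needs tetrahydrobiopterin, which is made from GTP by a path that Gch1 opens and Pts continues, and which Pcbd1 and Qdpr regenerate after each reaction. The vesicular transporter Slc18a2 loads dopamine into vesicles, and the monoamine oxidases Maoa and Maob break it down. In the retina dopamine is made by a sparse class of amacrine cells that mature after birth in the mouse, whereas pigment cells form L-DOPA with tyrosinase on the way to melanin.

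In GRCm38.p6 (RefSeq), Th lies at chr7:142892779-142899995, Ddc at chr11:11814101-11898144, Slc18a2 at chr19:59260878-59296012, Maoa at chrX:16619698-16687812 and Maob at chrX:16709281-16817366. Of the biopterin genes, Gch1 lies at chr14:47153895-47189413, Pts at chr9:50521617-50528716, Qdpr at chr5:45434032-45450229 and Pcbd1 at chr10:61089331-61094329. RefSeq promoter windows (GRCm38.p6, 250 bases before to 50 after the annotated start) were on hand for 8 of the 9 genes, with 2 for Ddc. They are shown for Th and Slc18a2, the members whose windows hold a full cAMP response element, and for Pcbd1, the member whose genotype groups did not overlap. The Th window lies at chr7:142899946-142900245 (minus strand), that of Slc18a2 at chr19:59260628-59260927 (plus strand) and that of Pcbd1 at chr10:61089081-61089380 (plus strand). Capitals mark the letters of the motifs searched on both strands. The TATA box was searched as TATAAA. The cAMP response element was searched as TGACGTCA. The GC box was searched as GGGCGG. The CCAAT box was searched by its own letters. The E-box was searched as CACGTG. In the windows shown no motif overlaps another.
Th: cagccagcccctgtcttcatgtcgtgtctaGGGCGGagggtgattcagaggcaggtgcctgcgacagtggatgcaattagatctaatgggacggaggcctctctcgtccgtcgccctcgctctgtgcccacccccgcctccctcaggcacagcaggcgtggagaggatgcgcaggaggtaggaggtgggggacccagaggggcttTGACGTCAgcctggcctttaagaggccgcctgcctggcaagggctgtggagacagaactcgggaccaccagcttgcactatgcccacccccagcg
Slc18a2: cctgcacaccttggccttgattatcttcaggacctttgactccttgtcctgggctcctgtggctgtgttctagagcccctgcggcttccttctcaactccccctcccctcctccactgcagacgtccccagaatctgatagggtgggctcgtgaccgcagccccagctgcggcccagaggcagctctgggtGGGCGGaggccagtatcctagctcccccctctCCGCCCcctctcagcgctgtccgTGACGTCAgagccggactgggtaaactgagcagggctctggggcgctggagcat
Pcbd1: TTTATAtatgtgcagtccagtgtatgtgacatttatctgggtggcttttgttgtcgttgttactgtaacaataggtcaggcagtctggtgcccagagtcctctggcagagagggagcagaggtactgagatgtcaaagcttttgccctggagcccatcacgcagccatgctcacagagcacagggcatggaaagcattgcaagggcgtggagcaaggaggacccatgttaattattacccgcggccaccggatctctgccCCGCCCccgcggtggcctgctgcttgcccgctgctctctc

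The cAMP response element starts 45 bases before the Th start and 4 bases before the Slc18a2 start. It was present in 2 of the 9 windows of these genes, against 1.79% of all 32851 windows. The GC box was in 7 of 9 windows (35.7% of all), the TATA box in 3 (13.6% of all), the CCAAT box in 3 (37.4% of all) and the E-box in 0 (7.15% of all). A match is a description of the letters, and no binding was measured here.

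The arrays were checked first through the deleted gene. Gpr143 (1420581_at) read 28.3, 39.1 and 6.02 in Oa1-/- and 250, 257 and 246 in WT, so every array followed its label as far as this probe set reports the deleted part. The highest of 27 bacterial control probe sets read between 22.1 and 39.3 on the arrays, which gives the level of background. WT replicate 3 stood apart in the Y-linked genes Eif2s3y, Kdm5d and Uty, whose summed signal was 37.2 on it. That sum was 981 to 1748 in Oa1-/- and 1516 and 1049 on the other WT arrays. On WT replicate 3 these genes read 9.26, 13.5 and 14.4, each below that array's highest bacterial control of 29.9. Xist, the transcript of X inactivation, read 8671, 6737 and 11988 in Oa1-/- and 9838, 12721 and 14194.5 in WT, highest on WT replicate 3. The part of the pools' sex make-up in the X-linked Maoa and Maob was not tested beyond a covariate for Y-linked signal. Signals of the 18S ribosomal RNA control (3' probe set) were 6348, 2618 and 2608 in Oa1-/- and 1476, 1988 and 1988 in WT, highest on Oa1-/- replicate 1.

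None of the 9 genes passed the test used for a change between the genotypes. By limma, 0 of the 9 tested probe sets passed an adjusted p of 0.05 and 0 passed an unadjusted p of 0.05. Of all 27022 tested probe sets, 0% and 4.10% passed those thresholds. The deleted gene Gpr143 missed the adjusted threshold too, with a log2 change of −2.82 (unadjusted p = 2.35e-05 and adjusted p = 0.318 in limma). An adjusted p above 0.05 therefore does not show that a gene was unchanged. The groups did not overlap for 1 of the 9 probe sets, that of Pcbd1, against 10.2% of all tested (4.93% with Oa1-/- higher), so the share of these genes lay near the background. On the brightest probe set of each gene, 7 genes had a higher and 2 a lower mean log2 value in Oa1-/-, with a median log2 change of 0.08. Among the 7 genes that were tested, 5 were higher and 2 lower, with a median of 0.05. Over the brightest probe sets of all 12880 tested genes the median was 0.00255 and 50.8% were higher. Without Oa1-/- replicate 1 and WT replicate 3 the median of the 9 genes was 0.00957, so its sign was kept and most of its size was not. In bulk eye tissue, fewer cells of a type and less RNA per cell cannot be told apart.

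**Figure D1:**
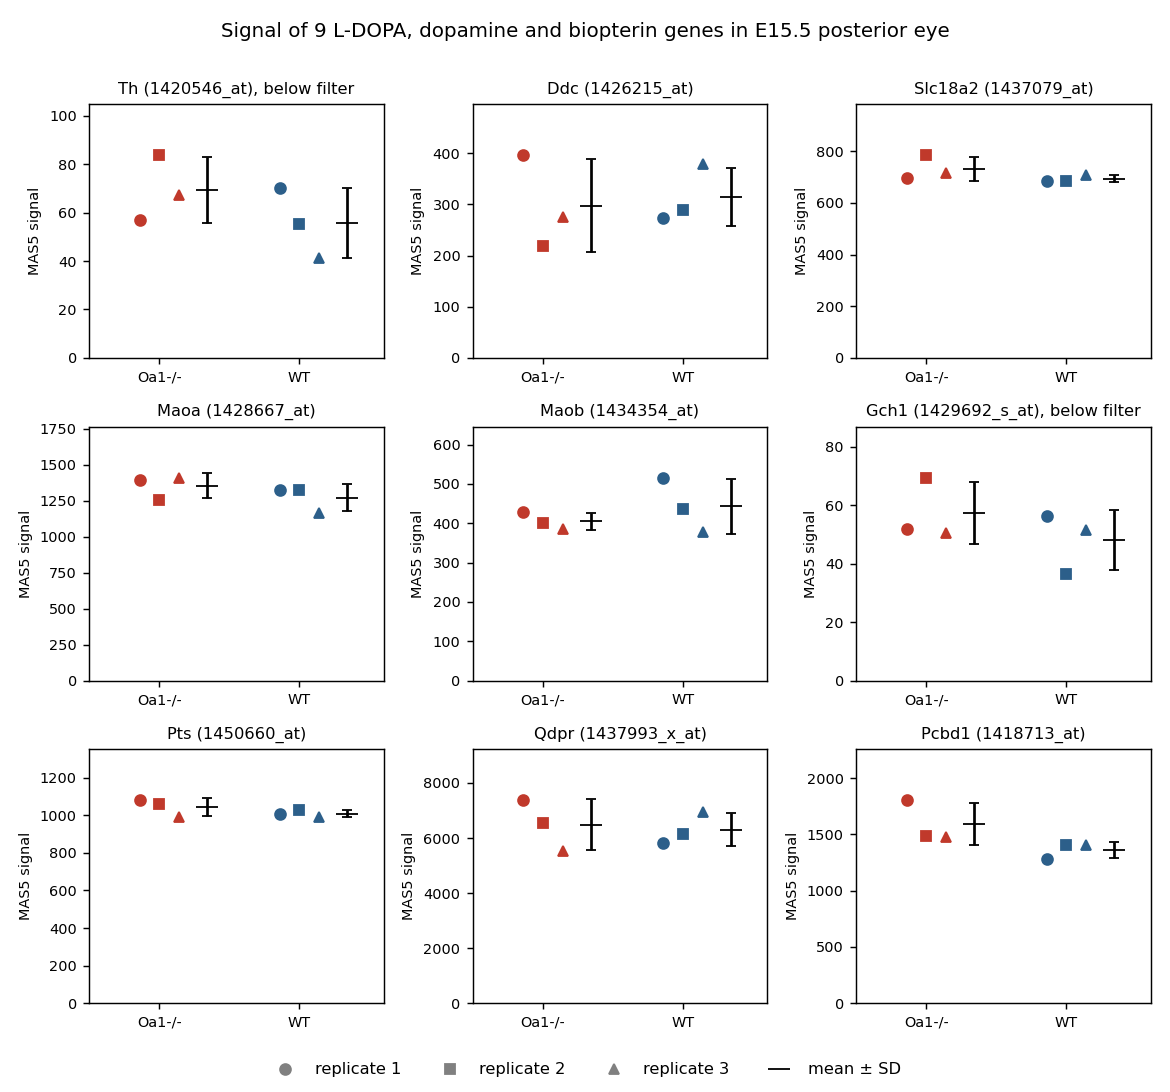
MAS5 signal (linear, from 0) of the brightest probe set of each of the 9 genes, with Oa1-/- arrays left and WT arrays right, a symbol per replicate and the mean ± SD beside them. The groups overlap in every panel but that of Pcbd1, where the Oa1-/- arrays lie between 1477 and 1803 and the WT arrays between 1277 and 1404.

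Tyrosine hydroxylase was measured close to the background. Th (1420546_at) read 56.9, 83.8 and 67.2 in Oa1-/- and 70.2, 55.4 and 41.3 in WT, with means of 69.3 ± 13.6 and 55.6 ± 14.4 (SD, n = 3 each). Every array was above its own highest bacterial control, but the mean over all arrays, 62.5, fell just under the filter at 66.1, so Th was not tested in the main model. The groups overlapped, with the lowest signal on WT replicate 3 and the highest on Oa1-/- replicate 2. In the model without the filter the log2 change was 0.26 (SE 0.27, 95% interval −0.35 to 0.87, adjusted p = 0.993 in limma). Leaving out WT replicate 3 took the change to 0.11, and leaving out WT replicate 1 to 0.40, while a covariate for Y-linked signal gave 0.07. The part of the Y-linked signal in the Th value was not tested beyond this.

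The first enzyme of biopterin synthesis was dim as well. Gch1, which encodes GTP cyclohydrolase 1, read 51.8, 69.5 and 50.6 in Oa1-/- and 56.5, 36.5 and 51.4 in WT on its brighter probe set (1429692_s_at). The other (1420499_at) read 71.7, 49.96 and 39.6 in Oa1-/- and 51.6, 55.0 and 41.4 in WT. The groups overlapped on both, the order of the arrays differed between them, and neither passed the filter. Without the filter the log2 changes were 0.20 (95% interval −0.39 to 0.78) and 0.07 (−0.54 to 0.69), with an adjusted p of 0.993 and 0.997 in limma. The brighter probe set's change was 0.08 without Oa1-/- replicate 2 and 0.06 without WT replicate 2, so its size rested on those arrays.

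Pts, encoding 6-pyruvoyltetrahydropterin synthase, the next step, was steady across the arrays. Its brighter probe set (1450660_at) read 1081, 1062 and 989 in Oa1-/- and 1007, 1030 and 992 in WT, a range of 1.09-fold from the lowest array to the highest. The log2 change was 0.05 (SE 0.09, 95% interval −0.15 to 0.25, adjusted p = 0.986 in limma). This was the narrowest interval among the tested genes. A second probe set (1458402_at), which read 3.32, 55.7 and 36.0 in Oa1-/- and 48.6, 49.9 and 36.4 in WT, lay near the background. It was above the bacterial control on 4 of 6 arrays and its log2 change of −0.54 (95% interval −1.59 to 0.50) rests on the low value of Oa1-/- replicate 1.

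Of the genes that recycle the cofactor, Pcbd1 showed the largest change among the tested probe sets. Its product, pterin-4a-carbinolamine dehydratase, returns the oxidised pterin to the cycle and also binds the transcription factor HNF1. Pcbd1 (1418713_at) read 1803, 1486 and 1477 in Oa1-/- and 1277, 1402 and 1404 in WT, with means of 1589 ± 185 and 1361 ± 72.7 (SD, n = 3 each). All 3 Oa1-/- arrays lay above all 3 WT arrays, the highest being Oa1-/- replicate 1 and the lowest WT replicate 1. The log2 change was 0.22 (SE 0.10, 95% interval −0.02 to 0.45, unadjusted p = 0.0707 and adjusted p = 0.985 in limma), and 24.3% of all tested probe sets had a larger absolute change. The exact permutation p was 0.1, two-sided, the smallest that 3 arrays against 3 can give.

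Part of the Pcbd1 difference rested on single arrays. Without WT replicate 1, the lowest, the log2 change was 0.17 (unadjusted p = 0.180 in limma). Leaving out Oa1-/- replicate 1 lowered it further, and leaving out any other single array did not lower it. With Oa1-/- replicate 1 left out, where the 18S control was brightest, the log2 change was 0.12 (unadjusted p = 0.245 in limma, same model), and the gap between the lowest Oa1-/- array and the highest WT array was the 1477 against 1404 already given. The 3' and 5' probe sets of the 18S control also separated the genotypes. On its M probe set the groups overlapped, at 6576, 2826 and 1968 in Oa1-/- and 1371, 2397 and 1731 in WT. The part of the 18S signal in the Pcbd1 value was not tested.

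Qdpr, encoding dihydropteridine reductase, which restores tetrahydrobiopterin with NADH, gave 2 probe sets with different patterns. The brighter (1437993_x_at, a type of probe set that can also bind related transcripts) read 7372, 6535 and 5521 in Oa1-/- and 5830, 6129 and 6959 in WT. Both extremes were Oa1-/- arrays, and the log2 change was 0.03 (SE 0.12, 95% interval −0.24 to 0.30, adjusted p = 0.995 in limma). The other (1423664_at) read 1968, 1544 and 1804 in Oa1-/- and 1608, 1605 and 1552 in WT, a log2 change of 0.15 (95% interval −0.08 to 0.38, adjusted p = 0.985). There 2 of the 3 Oa1-/- arrays lay above all WT arrays and Oa1-/- replicate 2 lay below them. The brighter probe set's sign turned without Oa1-/- replicate 1 (−0.07) and without WT replicate 1 (−0.02), so no direction can be given for it.

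**Figure D2:**
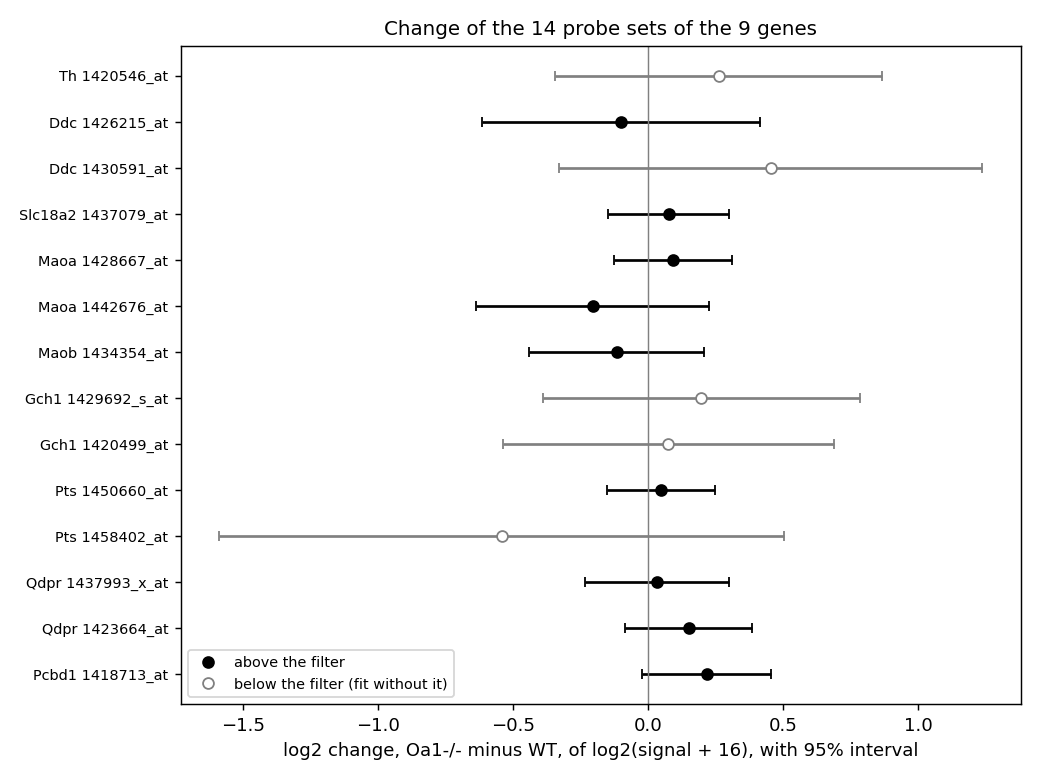
Log2 change (Oa1-/- minus WT, on the log2(signal + 16) scale) of the 14 probe sets with 95% intervals, filled where a probe set was above the filter and open where it came from the model without the filter. Every interval includes 0, and those of the dim probe sets are the widest, reaching −1.59 for 1458402_at of Pts.

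Ddc, the decarboxylase that acts on L-DOPA, varied more among arrays of a genotype than between genotypes. Its brighter probe set (1426215_at) read 397, 219 and 276 in Oa1-/- and 274, 290 and 378 in WT, so the highest and the lowest arrays were both Oa1-/-. Means were 297 ± 90.9 in Oa1-/- and 314 ± 56.3 in WT (SD, n = 3 each), with a log2 change of −0.10 (SE 0.22, 95% interval −0.62 to 0.41, adjusted p = 0.989 in limma). The sign turned without Oa1-/- replicate 2 (0.09), without WT replicate 3 (0.03) and with the Y-linked covariate (0.08), and without Oa1-/- replicate 1 the change was −0.32. The other probe set (1430591_at) read 33.9, 35.5 and 34.4 in Oa1-/- and 5.73, 29.9 and 34.7 in WT, near the background, and was not tested in the main model.

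Slc18a2, the vesicular monoamine transporter 2, was among the steadiest of the genes. Its probe set (1437079_at) read 697, 785 and 715 in Oa1-/- and 686, 684 and 708 in WT, with the highest value on Oa1-/- replicate 2. The groups overlapped through Oa1-/- replicate 1 and WT replicate 3. The log2 change was 0.08 (SE 0.10, 95% interval −0.15 to 0.30, adjusted p = 0.985 in limma), and 0.03 without Oa1-/- replicate 2.

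Maoa and Maob, the enzymes of breakdown, lie beside each other on the X chromosome (GRCm38.p6), with 21468 bases between them and 136.0 Mb from Gpr143, which is X-linked too. Maoa (1428667_at) read 1395, 1252 and 1410 in Oa1-/- and 1321, 1325 and 1161 in WT, a log2 change of 0.09 (SE 0.10, 95% interval −0.13 to 0.31, adjusted p = 0.985 in limma). A second Maoa probe set (1442676_at) read 324, 225 and 269 in Oa1-/- and 377, 317 and 259 in WT, a log2 change of −0.21 (95% interval −0.64 to 0.23, adjusted p = 0.985). The probe sets thus differed in sign, with overlapping groups on both. WT replicate 3, where the Y-linked signal was at the background, was the lowest WT array on each.

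Maob (1434354_at) read 429, 401 and 385 in Oa1-/- and 516, 436 and 378 in WT, with means of 405 ± 22.3 and 443 ± 69.5 (SD, n = 3 each). The Oa1-/- arrays lay inside the WT range. The log2 change was −0.12 (SE 0.14, 95% interval −0.44 to 0.21, adjusted p = 0.985 in limma). It was −0.00595 without WT replicate 1, the highest array, and −0.22 without WT replicate 3, the lowest. With the Y-linked covariate the change was −0.23 for Maob and 0.03 for the brighter Maoa probe set.

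By role, the brightest probe sets of the 4 biopterin genes had log2 changes from 0.03 to 0.22, all positive, with a median of 0.12. Over all tested genes 50.8% were higher in Oa1-/-. Gch1 was below the filter, Qdpr turned sign in some alternatives and the dimmer Pts probe set had a change of −0.54, so no common direction can be given. Those of the 3 genes of L-DOPA and dopamine synthesis and storage ran from −0.10 to 0.26, and those of the monoamine oxidases were −0.12 and 0.09. Of the 5 genes with 2 probe sets, both had the same sign for 2, Gch1 and Qdpr, and opposite signs for Ddc, Maoa and Pts. Of the 9 tested probe sets, 5 were highest on Oa1-/- replicate 1 and 0 were lowest on it. The share over all tested probe sets was not counted, so this cannot be read as a trait of these genes. That array also had the lowest median signal, 93.6 against 108 to 129 on the others, at the same scaled mean.

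**Figure D3:**
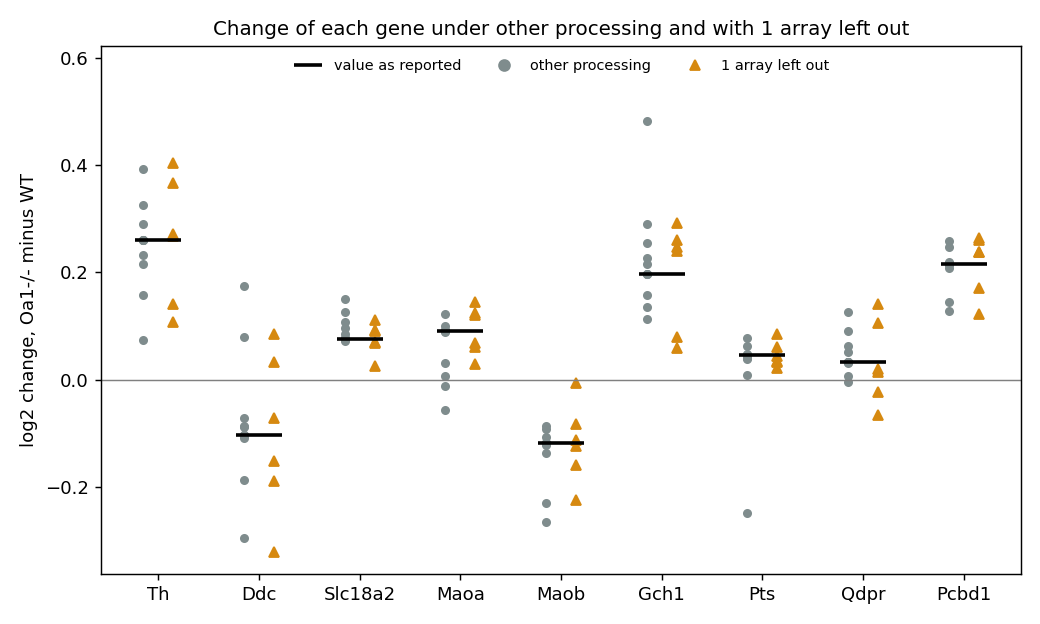
Log2 change (Oa1-/- minus WT) of each gene as reported (bar), under other processing (grey points) and with 1 array left out (orange triangles). The grey points also hold the fit without Oa1-/- replicate 1 and WT replicate 3 together. Values are those of the brightest probe set, except that the grey points include an average over all probe sets of each gene. Th, Slc18a2, Gch1 and Pcbd1 keep a positive and Maob a negative value throughout, while Ddc, Maoa and Qdpr each cross 0 at least once. Pts crosses 0 only through that average (−0.25), and its brightest probe set stays positive.

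The genes around the pathway were read from 7 lists of 57 genes, of which 49 had a named probe set and 32 passed the filter. In limma, 1 of the 32 had an unadjusted p below 0.05 (3.13%, against 4.10% of all tested probe sets) and 0 had an adjusted p below 0.05. There were 21 with a higher and 11 with a lower value in Oa1-/-, with a median log2 change of 0.04, and the groups did not overlap for 5, against 10.2% of all. The gene past the unadjusted threshold was Aldh2, the mitochondrial aldehyde dehydrogenase that clears the aldehydes left by monoamine oxidases. Aldh2 (1448143_at) read 1214, 1055 and 1023 in Oa1-/- and 1358, 1243 and 1473 in WT, without overlap. Its log2 change was −0.30 (SE 0.11, 95% interval −0.55 to −0.06, unadjusted p = 0.0198 and adjusted p = 0.985 in limma). It missed the unadjusted threshold with median centring, with the Y-linked covariate, and without Oa1-/- replicate 2, Oa1-/- replicate 3 or WT replicate 3, with log2 changes from −0.38 to −0.24 when 1 array was left out. The 4 dimmer Aldh2 probe sets had log2 changes of −0.26, 0.30, 0.10 and 0.04, and the mean of all 5 changed by −0.02.

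Among the other biopterin genes, 2 of 4 passed the filter. Spr, sepiapterin reductase, which completes tetrahydrobiopterin synthesis, had a log2 change of 0.11, and Pcbd2, the paralog of Pcbd1, −0.10. Of 7 enzymes that use the cofactor, the nitric oxide synthases Nos3 and Nos1 passed, with log2 changes of 0.20 and 0.29. Nos3 read 216, 221 and 223 in Oa1-/- and 183, 187 and 197 in WT, with no overlap (adjusted p = 0.985 in limma). None of these 4 had an unadjusted p below 0.05.

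Of 12 other genes of catecholamine synthesis, uptake and breakdown, 8 passed the filter, 5 with a higher and 3 with a lower value in Oa1-/-, and Dbh, which makes noradrenaline from dopamine, and the dopamine uptake transporter Slc6a3 did not pass. Pnmt, which makes adrenaline, had a log2 change of 0.34 and the vesicular transporter Slc18a1, whose groups did not overlap, one of −0.23, neither past a threshold. Of 5 dopamine receptors, Drd1 (log2 change 0.03) and Drd4 (−0.05) passed the filter, and both signs turned when single arrays were left out. Of 10 genes that carry L-DOPA and tyrosine or break tyrosine down, 7 passed, among them the transporter subunits Slc7a5 (0.12) and Slc3a2 (−0.09) and the aromatic amino acid transporter Slc16a10 (0.11). The tyrosine-degrading genes Tat, Hpd and Hgd lay below the filter.

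The genes of melanin synthesis comprised the enzymes Tyr, Tyrp1 and Dct, the melanosome fibril protein Pmel and transporters of pigment cells. Of 7 listed, 6 were measured, 5 with a higher and 1 with a lower value in Oa1-/-, and on their brightest probe sets 0 had an unadjusted p below 0.05 in limma. Tyr, tyrosinase, read 2925, 2745 and 2556 in Oa1-/- and 2326, 2658 and 2695 in WT, a log2 change of 0.10 (95% interval −0.11 to 0.31, adjusted p = 0.985 in limma). Tyrp1 and Dct, the later enzymes, had log2 changes of 0.10 and 0.07. WT replicate 1 was the lowest array for all 3, and without it the changes were −0.04 for Tyrp1 and −0.08 for Dct. Another Tyrp1 probe set (1439409_x_at) read 3379, 1665 and 3270 in Oa1-/- and 849, 1178 and 1498 in WT (log2 change 1.19, unadjusted p = 0.00302 and adjusted p = 0.985 in limma). It was singled out after its values were seen, and the brightest Tyrp1 probe set, at 3171, 2974 and 2747 in Oa1-/- and 2264, 2980 and 3091 in WT, had a log2 change of 0.10. The mean of the 3 Tyrp1 probe sets changed by 0.48 (unadjusted p = 0.00451 and adjusted p = 0.948 in limma).

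Of 12 transcription factors of catecholamine neurons, 5 passed the filter and 0 had an unadjusted p below 0.05 in limma. Gata3, which acts in sympathetic neurons and other lineages, read 115, 114 and 112 in Oa1-/- and 135, 151 and 205 in WT, without overlap (log2 change −0.45, 95% interval −0.90 to 0.01, adjusted p = 0.985). Nr4a2, a nuclear receptor needed by midbrain dopamine neurons, read 410, 389 and 394 in Oa1-/- and 526, 444 and 447 in WT on its brightest probe set, also without overlap (log2 change −0.24, adjusted p = 0.985). Gata2 had a log2 change of −0.18, with overlap. Without WT replicate 3 that of Gata3 was −0.29, and the mean of the 6 Nr4a2 probe sets changed by 0.06, the opposite sign.

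The summed markers of cell types that could carry these genes overlapped between the genotypes, with 1 exception. Raw signals were summed, so the brightest marker of a list weighs most in its sum. Single markers did not all overlap. Of 53 tested, the groups did not overlap for 7, against 10.2% of all tested probe sets, so this count lay near the background. The 7 were Tfap2b, Isl1, Stmn2, Pax6, Gata3, Twist1 and Osr1. In limma, 0 of the 53 had an adjusted p below 0.05, against 0% of all tested probe sets. An unadjusted p below 0.05 was found for 7 of the 53, a larger share than the 4.10% of all tested probe sets. These were Stmn2 (log2 change 0.31) and Sncg (0.36) of ganglion cells, Pax6 (0.16) of retinal progenitors, Tfap2b (−0.22) of amacrine cells, Twist1 (−0.42) and Osr1 (−0.76) of periocular mesenchyme, and Alas2 (−0.42) of erythroid cells. Their part in the values of the 9 genes was not tested. All 6 markers of melanin-forming cells passed the filter, with summed signals from 24786 to 28089 in Oa1-/- and 21506 to 28295 in WT. Of 6 pigment epithelium markers, Rpe65, Best1 and Lrat lay below the filter, and the sums ran from 4905 to 5518 in Oa1-/- and 4974 to 8080 in WT. Of 6 amacrine markers, 5 passed and Gad1 did not, with sums from 4653 to 4985 in Oa1-/- and 4672 to 6130 in WT. Of 4 measured sympathetic neuron markers, Slc6a2 and Gata3 passed and Dbh and Hand2 did not, with sums from 344 to 382 in Oa1-/- and 370 to 414 in WT.

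The exception was the periocular mesenchyme, the connective tissue precursor around the eye. The 5 measured markers all had a lower mean in Oa1-/-, with sums from 8111 to 8469 in Oa1-/- and 9379 to 11177 in WT. Most of each sum was Col1a1, whose own groups overlapped (6325, 6630 and 6328 in Oa1-/- and 6221, 8127 and 9193 in WT). The erythroid sum varied most, from 6442 to 9140 in Oa1-/- and from 3393 to 20070 in WT. It was mostly Hbb-y, which read 19360, 7799 and 2752 in WT, while Alas2 read 437, 595 and 580 there. Retinal ganglion cell markers summed to 29078 to 33700 in Oa1-/- and 26158 to 29897 in WT, and retinal progenitor markers to 26952 to 28098 and 25032 to 27717. Lens markers summed to 67382 to 72549 in Oa1-/- and 55735 to 71229 in WT. All 4 measured lens markers passed the filter, so lens transcripts were measured in this posterior eye tissue too. Endothelial sums were 3356 to 3569 in Oa1-/- and 3264 to 3547 in WT, macrophage sums 2550 to 2894 and 2676 to 3099, and muscle sums 4038 to 9021 and 3690 to 8818.

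The genes with the pattern most like that of Pcbd1 over the 6 arrays were Naca, Mark1 and Nudt21, with Pearson correlations of 0.994, 0.991 and 0.990 on the log2(signal + 16) scale. Of 12873 genes compared, 215 had a correlation above 0.9. The arrays share their scaling, so this is a description only. Naca, a ribosome-associated chaperone subunit, read 18746, 16737 and 16442 in Oa1-/- and 15438, 16095 and 16177 in WT, so it too was highest on Oa1-/- replicate 1 and lowest on WT replicate 1. Its log2 change was 0.12 (adjusted p = 0.985 in limma).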

How the data were processed

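Posterior eye RNA of 3 Oa1-/- and 3 WT litter pools was measured on Affymetrix arrays. The deposited intensity values are MAS5 signals on a linear scale, per the submitters' processing notes, with the MAS5 version not given in the sources used here. All 6 arrays had been scaled to a common target, as the values themselves show. Detection calls were not used here. The platform annotation gave 1 gene symbol for 34945 of 45101 probe sets, several for 932 and none for 9160, leaving 64 control probe sets. The RefSeq table (GRCm38.p6) matched 34741 of the probe sets with 1 symbol and changed 0.

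Values were taken as log2(signal + 16), which understates changes of dim probe sets. Probe sets with a mean above the 40th percentile (a signal of 66.1) were kept. These were 27022, among them probe sets with no symbol or several, and those with 1 symbol covered 12880 genes. limma 3.58.1 in R 4.3.3 (lmFit, eBayes with an intensity trend) was fitted over all of them, Oa1-/- minus WT with no covariate, two-sided, with Benjamini-Hochberg adjustment and a threshold of 0.05. Intervals are 95% intervals of that model. A gene's brightest probe set over the 6 arrays stood for it. Probe sets below the filter have values from a model without it. The code was tested on simulated data. The number of arrays limits the precision, and n is 3 litter pools per genotype.

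Named genes were all members, Gpr143, list genes with an unadjusted p below 0.05 or among the 3 smallest of a list, and the 3 genes most like the member with the smallest p. The members and lists were chosen with earlier results of these data known. Alternatives were other pseudocounts, filters, normalizations, variance settings, array weights, a Y-linked covariate, the replicate number as a block, averaging over probe sets of a gene and leaving out arrays. Promoter windows are from RefSeq.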

Additional observations from a re-analysis of the deposited data

How the results depend on the processing

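Of 17 alternatives, 15 gave 0 probe sets with an adjusted p below 0.05, and median centring (Gpr143, Kantr) and array weights (Kantr, Slc25a29) gave 2 each in limma. At an unadjusted p below 0.05, against 1109 as reported, there were 3076 with array weights, 1968 with no filter and 607 when only signals above the 70th percentile were kept. Of the members, 1 probe set passed that threshold with array weights (Maoa, 1442676_at, log2 change −0.38) and 1 without Oa1-/- replicate 1 and WT replicate 3 together (the same Maoa probe set, −0.46). Leaving out single arrays gave 0 to 1 (Qdpr, 1423664_at, 0.24 without Oa1-/- replicate 2). Of the list genes, 0 passed with median centring, 0 with the Y-linked covariate, 2 with no intensity trend, 3 with array weights, and 0 to 2 with 1 array left out. The median of the member genes was 0.00957 without both arrays. Log2 changes turned sign for Ddc (0.079 with the Y-linked covariate, 0.18 as the mean of its probe sets, −0.32 to 0.086 with 1 array left out), Maoa (−0.012 with array weights, −0.057 as the mean of probe sets), Pts (−0.25 as the mean of probe sets) and Qdpr (−0.00375 with quantile normalization, −0.066 to 0.14 with 1 array left out). The other members kept their sign in all alternatives run. As means of probe sets, Nos1 (−0.041), Pnmt (−0.011), Slc18a1 (0.059), Drd4 (0.49) and Nr4a2 (0.056) turned sign. Tyrp1 was 0.48 as a mean of probe sets, against 0.10 as reported. Array weights turned Drd4 (0.15), Drd1 (−0.26) and Dct (−0.00775), and Drd4 was 0.18 with the Y-linked covariate and 0.13 without both arrays. With 1 array left out, the ranges that crossed 0 were Drd4 (−0.23 to 0.18), Drd1 (−0.31 to 0.22), Dct (−0.080 to 0.15), Pcbd2 (−0.20 to 0.00255), Spr (−0.022 to 0.21), Slc7a5 (−0.052 to 0.22) and Tyrp1 (−0.036 to 0.19). The causes were not tested.

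Deviations from the group means had correlations of −0.29, 0.16 and −0.23 for same-numbered arrays. Those of the other pairs ran from −0.30 to 0.36. With 3 arrays per group these values cannot decide whether the numbers pair the litters, and the labels state no pairing. With the replicate block, 885 probe sets had an unadjusted p below 0.05 and 0 an adjusted one in limma. The alternatives for list genes were chosen after seeing the data. Signals near the background limit what can be said of Th and Gch1.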
